A study of Mus musculus with 16 samples.

Results

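Histone modifications were measured at 10 genes for parts of the sperm tail in haploid spermatids of WT and H2A.B KO mice. The genes were Odf1 and Odf2 (outer dense fibers), Akap3 (fibrous sheath), Smcp (mitochondrial sheath), Oaz3, the tektin genes Tekt1, Tekt2 and Tekt4, Spag6 (central pair of the axoneme) and Meig1, and they were chosen by name from 21938 protein-coding genes of mm10. The libraries were made by AutoCUT&RUN, in which an antibody tethers micrococcal nuclease to its target and the cut DNA fragments are sequenced. There were 16 libraries in 8 groups, with antibodies to H3K4me3, H3K27me3 and H3K9me3 and a control IgG, each in KO and WT spermatids with 2 replicates. The KO males carried mutations in all 3 H2afb genes of the X chromosome, made by CRISPR/Cas9 in B6;SJLF1/J zygotes, in a single strain backcrossed to C57BL/6J. The lesions remove parts of the reading frames and leave the rest of each gene in place, and all KO libraries come from this one line. The WT males were siblings of the KO males without the mutations, and all were unmated, untreated and 2 months old. Spermatids were sorted live by Hoechst and propidium iodide staining, so the cells are testicular germ cells and not mature sperm.

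The sperm flagellum is built in spermatids around an axoneme of microtubules, to which the outer dense fibers, the fibrous sheath and a helical sheath of mitochondria are added. Most of its proteins are made late in spermatogenesis, many of them from genes used in the testis alone. H3K4me3 is known for marking the starts of active genes, H3K27me3 for Polycomb-repressed genes and H3K9me3 for constitutive heterochromatin, and IgG gives the cleavage that needs no histone mark.

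Counts are of distinct fragments, each position and length counted once, whose midpoint lay within 1 kb of a gene start. Levels are these counts per 1000000 distinct fragments of the library, written FPM. The libraries held 784360 to 3394830 distinct fragments for H3K4me3, 200457 to 3806026 for H3K27me3, 5009169 to 6746382 for H3K9me3 and 159611 to 270598 for IgG, so that the IgG values are the least precise. The label of the cells was compared with marker genes. H3K4me3 was above the median level of all starts at 9 of 10 spermatid markers, with Prm1, the protamine 1 gene, below it at 1.54 FPM. It was above that median at 0 of 6 markers each of spermatogonia, Sertoli cells and Leydig or peritubular cells, and at 0 of 4 of blood. The summed spermatid marker level was 163 to 190 FPM in KO and 127 to 167 in WT. The summed spermatogonial marker level was 2.06 to 3.71 in KO, 3.21 in WT replicate 2 and 17.8 in WT replicate 1, and its part in the results was not tested. The 3 H2afb genes together held 1 to 8 H3K4me3 fragments in a library, and their small lesions cannot be read from such counts.

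The sequence around the starts differed widely among the 10 genes. Within 1 kb of the gene start, the observed over expected number of CpG dinucleotides was 0.747 at Odf2, 0.662 at Spag6, 0.570 at Oaz3, 0.477 at Tekt1, 0.394 at Tekt2, 0.250 at Meig1, 0.234 at Odf1, 0.0925 at Akap3, 0.0605 at Smcp and 0.0597 at Tekt4. The 250 bases upstream of 5 RefSeq starts are shown to set CpG-rich promoters against promoters with few or no CpG, since H3K4me3 was found at both kinds. Capitals mark CpG dinucleotides, and each sequence reads 5′ to 3′ on the strand of its gene. The coordinates are chr2:29889470-29889719 (plus strand) for Odf2, chr11:72361883-72362132 (minus strand) for Tekt1, chr17:25471340-25471589 (plus strand) for Tekt4, chr6:126852848-126853097 (plus strand) for Akap3 and chr3:92589074-92589323 (minus strand) for Smcp, all of GRCm38.p6, the assembly of mm10.
Odf2: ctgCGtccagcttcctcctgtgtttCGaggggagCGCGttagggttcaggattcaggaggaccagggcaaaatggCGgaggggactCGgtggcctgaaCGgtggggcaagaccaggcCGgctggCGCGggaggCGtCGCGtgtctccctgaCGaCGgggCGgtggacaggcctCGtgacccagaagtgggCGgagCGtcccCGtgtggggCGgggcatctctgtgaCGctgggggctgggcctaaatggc
Tekt1: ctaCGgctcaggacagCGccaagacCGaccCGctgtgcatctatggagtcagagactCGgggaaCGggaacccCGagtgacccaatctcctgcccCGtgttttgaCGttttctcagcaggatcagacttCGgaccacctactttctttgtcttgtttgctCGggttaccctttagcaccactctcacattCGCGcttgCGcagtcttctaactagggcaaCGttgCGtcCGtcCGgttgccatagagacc
Tekt4: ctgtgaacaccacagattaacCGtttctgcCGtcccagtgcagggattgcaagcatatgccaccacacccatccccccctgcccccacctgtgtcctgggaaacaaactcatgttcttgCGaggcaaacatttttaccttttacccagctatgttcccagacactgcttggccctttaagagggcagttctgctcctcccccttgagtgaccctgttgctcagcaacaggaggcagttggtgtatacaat
Akap3: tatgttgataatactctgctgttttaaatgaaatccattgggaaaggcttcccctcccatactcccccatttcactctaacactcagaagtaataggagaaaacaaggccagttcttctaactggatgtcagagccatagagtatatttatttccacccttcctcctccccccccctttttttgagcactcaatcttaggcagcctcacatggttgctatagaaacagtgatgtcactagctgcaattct
Smcp: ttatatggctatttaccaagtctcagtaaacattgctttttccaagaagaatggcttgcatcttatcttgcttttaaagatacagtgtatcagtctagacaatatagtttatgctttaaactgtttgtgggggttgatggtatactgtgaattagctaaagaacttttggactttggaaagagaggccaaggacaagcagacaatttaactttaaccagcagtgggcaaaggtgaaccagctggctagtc
The Odf2 promoter held 22 CpG and that of Tekt1 held 18, whereas the Tekt4 promoter held 3 and those of Akap3 and Smcp held 0. RefSeq promoters matched 8 of the 10 genes, with 16 starts in all. In the same 250 bases on both strands, TGACG, the core of the cyclic AMP response element, was found at 5 of the 16 promoters (of Meig1, Odf2 and Tekt1) and at 17.8% of all 32851 RefSeq promoters. In the Tekt1 sequence above it begins at position −148 from the start. The letters GTTGCC, part of the motif of the ciliary RFX factors, were found at 4 of the 16 (of Spag6, Tekt1 and Tekt2) and at 10.4% of all promoters. TATAAA was found at 0 of the 16 and at 12.4% of all promoters, and the whole element TGACGTCA, which contains TGACG, at 0 of the 16 and at 1.55%. Promoters of the same gene overlap in part.

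H3K4me3 at the starts of 9 of the 10 genes was above the median level of all starts. The median of the 10 genes was 20.9 FPM against 3.24 over all 21938 starts. The exception was Tekt4 (31.3rd percentile), whose annotated gene start is not the start of its coding transcripts. Percentiles below give the rank of a gene among all 21938 starts by its mean over the 4 H3K4me3 libraries.

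The outer dense fibers are stiff rods along the tail, and Odf1 and Odf2 encode main proteins of them. Odf1 (ENSMUSG00000061923, chromosome 15, 38219203 to 38226735, plus strand) had 37 and 98 H3K4me3 fragments in the KO replicates and 11 and 52 in the WT replicates. Scaled to depth these are 27.5, 28.9, 14.0 and 23.8 FPM, so that both KO libraries were above both WT libraries. The mean of all 4 was 23.5 FPM, at the 93.2nd percentile. Odf2 (ENSMUSG00000026790, chromosome 2, 29889221 to 29931746, plus strand) had 28.2 and 26.5 FPM in KO and 31.9 and 20.6 in WT. Its genotypes overlapped, and its mean of 26.8 lay at the 96.3rd percentile. Odf2 is also a protein of centrioles, used in many cell types.

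The fibrous sheath encloses the principal piece, and Akap3 encodes a scaffold of it that anchors protein kinase A. Akap3 (ENSMUSG00000030344, chromosome 6, 126853098 to 126874308, plus strand) had 32 and 123 fragments in KO and 22 and 66 in WT, or 23.7, 36.2, 28.0 and 30.3 FPM. The WT values lay between the KO values. Smcp encodes the cysteine-rich protein of the mitochondrial capsule in the midpiece. Smcp (ENSMUSG00000074435, chromosome 3, 92583867 to 92588997, minus strand) had 47 and 136 fragments in KO and 36 and 58 in WT, or 34.9, 40.1, 45.9 and 26.6 FPM. It was the highest of the 10 genes, and here the KO values lay between the WT values. With 0 CpG in the promoters shown above, Akap3 and Smcp had means of 29.6 and 36.9 FPM, at the 97.8th and 99.4th percentiles of all starts. Among the 9503 starts with an observed over expected CpG under 0.4, whose median was 0.295 FPM, they lay at the 97.8th and 98.9th percentiles. The other 4 genes of this CpG class lay at the 95.3rd (Odf1), 92.0th (Tekt2), 89.5th (Meig1) and 60.6th (Tekt4) percentiles of it.

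Oaz3 encodes the antizyme of the testis, a regulator of ornithine decarboxylase made in spermatids and needed for the joint of sperm head and tail. Oaz3 (ENSMUSG00000028141, chromosome 3, 94432414 to 94443915, minus strand) had 14.1 and 25.9 FPM in KO and 11.5 and 17.4 in WT. These values overlapped between genotypes, and the mean lay at the 81.6th percentile. Its window also holds the start of Mrpl9, a mitochondrial ribosomal protein gene on the opposite strand, 597 bp downstream of the Oaz3 start, and fragments there cannot be assigned to either gene. Meig1 encodes a small protein that spermatids need to assemble the tail. Meig1 (ENSMUSG00000026650, chromosome 2, 3409043 to 3422648, minus strand) had 16.3 and 14.4 FPM in KO and 15.3 and 15.1 in WT, the narrowest range of the 10 genes in proportion to its level, with a mean at the 76.9th percentile.

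Tektins are filament proteins of the doublet microtubules. Tekt1 (ENSMUSG00000020799, chromosome 11, 72344722 to 72362442, minus strand) had 19.3 and 30.3 FPM in KO and 17.8 and 28.9 in WT. Its libraries differed by more within a genotype than the genotype means of 24.8 and 23.4 did. Tekt2 (ENSMUSG00000028845, chromosome 4, 126322121 to 126325688, minus strand) had 20.8 and 18.3 in KO and 19.1 and 14.7 in WT, and the noncoding gene Gm12945 on the opposite strand overlaps its window. The means of Tekt1 and Tekt2 lay at the 93.8th and 83.7th percentiles. Tekt4 (ENSMUSG00000024175, chromosome 17, 25454615 to 25476602, plus strand) had no fragment in either library of replicate 1 and 3 (KO) and 2 (WT) in those of replicate 2, with a mean of 0.450 FPM. Its 5 fragments summed over the 4 libraries were 0.884 times the sum that an even spread over the genome would give, against 48.9 times at Smcp. Spag6 encodes an armadillo-repeat protein of the central pair. Spag6 (ENSMUSG00000037708, chromosome 2, 18694032 to 18750413, plus strand) had 8.16 and 9.13 FPM in KO and 5.10 and 6.42 in WT, on 4 to 31 fragments a library, and its KO values were both above its WT values. Its mean of 7.20 FPM lay at the 59.5th percentile, below the median of 9.88 over the 12435 starts with a CpG value of 0.4 or more. Odf1 and Spag6 were the 2 of 9 genes tested where both KO libraries were above both WT libraries, which was the case at 27.8% of 12780 starts with at least 10 fragments.

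**Figure D1:**
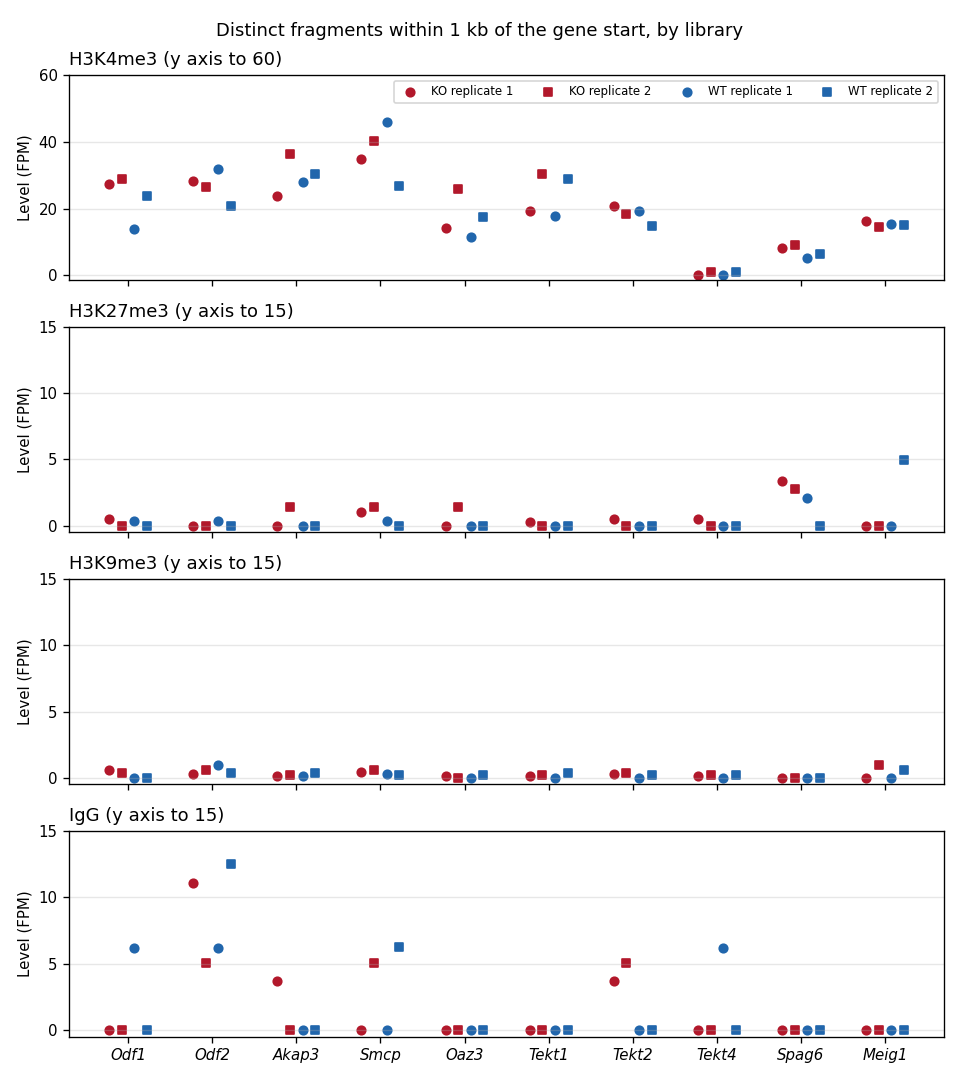
H3K4me3 and the other targets at the 10 gene starts. Each panel is a target and each point a KO or WT library, in FPM within 1 kb of the start, with the H3K4me3 axis to 60 and the others to 15. H3K4me3 ran from a mean of 0.450 at Tekt4 to 36.9 at Smcp, and the libraries of KO and WT overlapped except at Odf1 and Spag6.

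In order of mean level the genes were Smcp, Akap3, Odf2, Tekt1, Odf1, Tekt2, Oaz3, Meig1, Spag6 and Tekt4. Neighbours in this order overlapped in their ranges over the 4 libraries as far as Meig1. The highest Spag6 library, at 9.13 FPM, was under the lowest Meig1 library, at 14.4, and the highest Tekt4 library, at 0.917, was under the lowest Spag6 library, at 5.10.

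The annotated start of a gene is that of its longest annotated extent, and several of the 10 genes have coding transcripts that begin inside it. At Tekt4 and Spag6 these inner starts held more H3K4me3 than the gene starts. Around the start of the coding Tekt4 transcripts, 16975 bp downstream of the gene start, there were 30 and 82 fragments in KO and 17 and 50 in WT, or 22.3, 24.2, 21.7 and 22.9 FPM. All 4 libraries were close together there, at the 93.9th percentile of coding transcript starts, and this is the start whose promoter with 3 CpG is shown above. Around the coding Spag6 start, 4991 bp downstream of the gene start, there were 26.7 and 33.0 FPM in KO and 17.8 and 22.0 in WT. Both KO values were again above both WT values, as at inner starts of Oaz3 and Odf2 given below. The mean of 24.9 was above the 7.20 at the Spag6 gene start. Spag6 has a close copy, Spag6l on chromosome 16. Of the stretches of 25 bases in this window, the length of a read, 0.303% occur in Spag6l without a mismatch. Mapping of reads between the copies with mismatches was not tested.

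At other inner starts H3K4me3 was higher than at the gene start in Meig1, Oaz3 and Tekt1 and lower in Smcp and Odf2. The level was 27.2 FPM at 3519 bp into Meig1, where 15.3 was found at the gene start. In Oaz3 it was 23.9 at 7278 bp and 22.2 at 8798 bp, both far from Mrpl9, against 17.2 at the gene start that Mrpl9 shares. It was 30.6 at 1146 bp into Tekt1 against 24.1 at the gene start, 28.9 at 2793 bp into Smcp against 36.9, and 21.5 at 1319 bp into Odf2 against 26.8. These differences between starts of a gene were not tested. Both KO libraries were above both WT libraries at 8798 bp into Oaz3 (27.5 and 26.8 FPM against 17.8 and 16.5). The same held at 1319 bp into Odf2 (23.7 and 30.6 against 12.7 and 18.8). Apart from these and the coding Spag6 start, the genotypes overlapped at the inner starts. The share of all coding starts with this order was not counted. The windows of the inner Tekt1 and Odf2 starts overlap those of their gene starts, so some fragments count in both. The windows of the inner Oaz3 starts, at 7278 and 8798 bp, likewise overlap each other. Ranked by the highest coding start of each gene, picked after seeing the levels, Tekt2 was the lowest of the 10, at 18.2 FPM. The same ranking was not made for all genes.

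**Figure D2:**
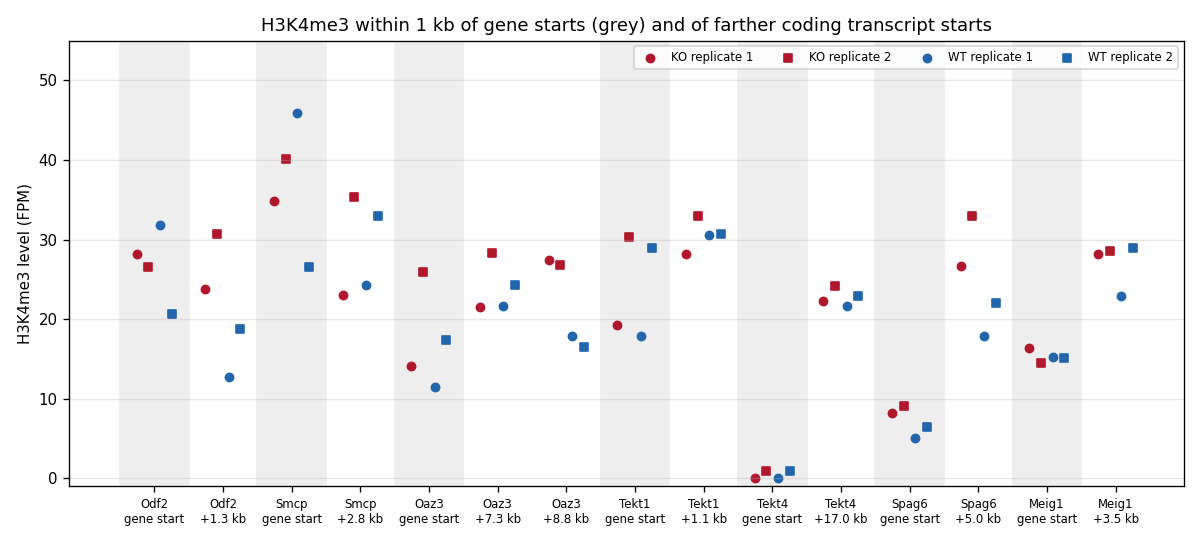
H3K4me3 at the gene start (grey bands) and the inner coding starts of the 7 genes that have one, with their distance in kb. The vertical axis is the level in FPM within 1 kb, and points are single libraries. The gene start of Tekt4 lies near 0 and its coding start, 16975 bp downstream, at 22.8 FPM.

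Over whole gene bodies H3K4me3 was above even coverage at all 10 genes. The ratio to even coverage was highest at Smcp (40.2), Tekt2 (27.8) and Odf1 (26.7), which are the shorter genes, and lowest at Odf2 (9.78), Tekt4 (7.74) and Spag6 (5.67). Tekt4 had 481 fragments over its body in the 4 libraries against 5 within 1 kb of its gene start.

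The side of the start on which H3K4me3 fragments lay within 2 kb differed among the genes. At Spag6 111 of 148 lay downstream of the gene start, at Tekt2 73.8%, at Odf1 70.1%, at Tekt1 67.2%, at Smcp 66.4% and at Akap3 61.0%. Odf2 had 53.0% and Oaz3 46.3% downstream, with 95% Wilson intervals of 47.6% to 58.3% and 39.6% to 53.2% that include an even division, and Meig1 had 38.5% (33.0% to 44.2%). All these shares pool KO and WT. At Odf2 the KO libraries together had 60.1% downstream (53.5% to 66.4%) and the WT libraries 39.7% (31.2% to 48.8%). The intervals of KO and WT overlapped at the other genes. They cover counting error only, and the difference at Odf2 was not tested. Short fragments, of 120 bp or less, are smaller than those of a whole nucleosome. The fullest bin of 100 bp held 20 of 155 of them at Akap3, just upstream of the start, and 12 of 85 at Tekt2, 700 to 800 bp downstream. At Odf1 it held 15 of 150, at 1500 to 1600 bp downstream. At Tekt1 it held 21 of 133, at 500 to 600 bp downstream, which is where a RefSeq start lies (at 560 bp). Another RefSeq start of Tekt1, at 1146 bp, lies in a bin with 3. The fullest bins were nearer to the next ones at Smcp (15 of 164, with 13 in each of 2 others) and at Odf2 (10 of 112). So was that of Oaz3, 600 to 700 bp downstream (8 of 67, with 7 in the bin before it). At Spag6 2 bins had 6 of 49 each. At Meig1 the fullest bin, 1500 to 1400 bp upstream, held 18 of 99, and this bin contains the start of Dclre1c, a DNA repair gene on the opposite strand 1483 bp from Meig1. Dclre1c was looked up after this bin was seen. In the KO libraries this bin held 16 of 76 short fragments. In WT the fullest bin at Meig1 was 900 to 800 bp upstream, with 3 of 23. At Tekt2 too the fullest bin differed, at 200 to 100 bp upstream in KO (7 of 64) and 700 to 800 bp downstream in WT (5 of 21).

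**Figure D3:**
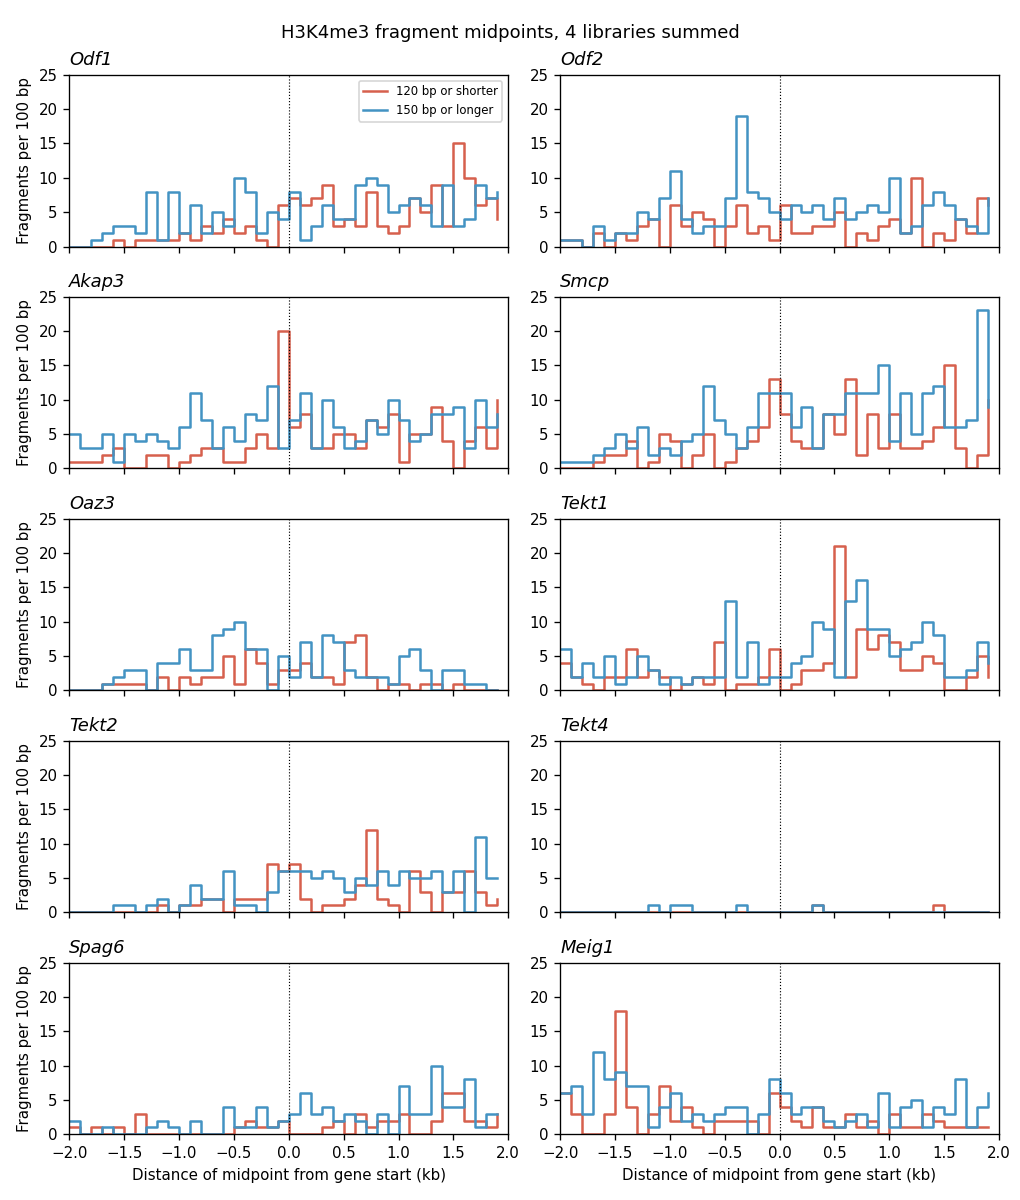
H3K4me3 fragments within 2 kb of the 10 gene starts, by distance from the start in kb and in bins of 100 bp summed over 4 libraries, for short (120 bp or less) and long (150 bp or more) fragments. The fullest bin of short fragments is just upstream of the start at Akap3, 500 to 600 bp downstream at Tekt1 and 1500 to 1400 bp upstream at Meig1. At Meig1 this bin was the fullest in KO but not in WT.

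IgG gives the level of cleavage without a histone antibody. Its 40 values at the 10 starts were 0 to 3 fragments, 29 of them 0, with 14 fragments in all. Summed over libraries and scaled to depth, H3K4me3 at the start was 20.3-fold above IgG at Odf1 (95% counting interval 3.61 to 807), 24.9-fold at Akap3 (4.43 to 989), 14.2-fold at Smcp (3.90 to 118) and 7.03-fold at Tekt2 (1.91 to 58.6). At 4 genes IgG had 0 fragments, and with 3 fragments over the pooled IgG libraries as the floor H3K4me3 was at least 7.05-fold higher at Tekt1, at least 5.27-fold at Oaz3, at least 3.97-fold at Meig1 and at least 2.05-fold at Spag6. Odf2 had the most IgG, with 3 and 1 fragments in KO and 1 and 2 in WT, and its H3K4me3 was 2.90-fold above it (1.38 to 7.32). IgG at Odf2 was 12.1 times even coverage (4.85 to 24.8). All intervals and floors come from summed counts, cover counting error only and leave out the spread between libraries. The fragments carry no molecular identifiers.

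Across all starts tested on the 16 libraries with limma-voom, H3K4me3 was higher than IgG at 8 of the 10 genes at an adjusted p under 0.05. The same was true of 44% of all 18428 starts tested. Higher were 5 of 9 genes tested without KO replicate 1 (22.8% of all starts), 5 of 9 without KO replicate 2 (28.9%) and 5 of 9 within 500 bp of the start (22%). Tekt1 had a log2 difference of 3.19 (SE 0.69, adjusted p = 0.000733) and Spag6 one of 1.53 (SE 0.64, adjusted p = 0.0316), and with the added count scaled to library depth, tried after seeing the data, these were 6.86 and 5.15. Odf2 missed the threshold (log2 difference 1.28, adjusted p = 0.0688). The gene start of Tekt4 was called lower than IgG on 5 H3K4me3 fragments and 1 IgG fragment (log2 difference −2.20), as were 24.7% of all starts. With the scaled count that difference was −0.02 and not called, and 9 of the 10 genes were higher against 72.1% of all starts. In the KO libraries alone 7 of 9 genes tested were higher, against 41.7% of all starts, and in the WT libraries alone 0 of 9, against 0.00599% of all starts, and the difference between these was not tested.

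At coding transcript starts, every start of the 10 genes apart from those of Odf2 was called higher than IgG, against 38.8% of 24333 such starts. The inner start of Tekt4 had a log2 difference of 2.78 (adjusted p = 0.00155, limma-voom) and that of Spag6 one of 2.85 (adjusted p = 0.00147). Over gene bodies, all 10 genes were higher than IgG, against 30.4% of 21001 bodies. The log2 differences over bodies ran from 2.81 at Tekt4 to 3.65 at Smcp.

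H3K27me3 had few fragments at the starts. Its counts were 0 in 25 of 40 values, and 39 fragments were found over the 10 genes and 4 libraries. Spag6 held 21 of these, with 13 and 2 in KO and 6 and 0 in WT, which is 3.76 times even coverage (95% counting interval 2.33 to 5.75). The other 9 genes had at most 1.07 times even coverage. The median of the 10 genes was 0.285 FPM beside 0.351 over all starts. Spag6 was at the 73.3rd percentile of all starts, Meig1 at the 67.3rd (on 1 fragment, from the shallowest H3K27me3 library), Smcp at the 62.1st and Akap3 and Oaz3 (1 fragment each) at the median, with the other 5 genes below it. At the coding Spag6 start there were 16 and 3 H3K27me3 fragments in KO and 22 and 0 in WT, where WT replicate 2 is the shallowest H3K27me3 library with 200457 fragments. The coding start of Tekt4 held 5 and 2 in KO and 5 and 0 in WT. By limma-voom neither was called above IgG in H3K27me3 (log2 difference 0.61, adjusted p = 0.413 at Spag6, and −0.79, adjusted p = 0.299 at Tekt4). Over the Spag6 body H3K27me3 was 1.61 times even coverage, with 125 and 14 fragments in KO and 112 and 3 in WT, while over the bodies of Odf1 and Tekt4 it was 1.62 and 1.01 times.

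H3K4me3 was higher than H3K27me3 at the start of 9 of the 10 genes by limma-voom, against 55.6% of all starts, and over the body of all 10, against 49.8% of all bodies. Tekt4 was again the exception at the start (log2 difference 0.19, adjusted p = 0.842). Against IgG the H3K27me3 calls depended on the added count, the scaling and single libraries. With a fixed count of 0.5, 9 of the 10 genes were called lower than IgG and so were 58.1% of all starts. That count is worth more FPM in an IgG library of low depth, and its part in these calls was not tested. Lower calls were 1 of 9 tested without KO replicate 1 (1.15% of all starts), 1 of 10 without WT replicate 1 (2.89%) and 5 of 9 without KO replicate 2 (38.8%). With median-ratio scaling 1 of the 10 was lower (2.22% of all starts) and 1 higher (28.2%). With the count scaled to depth, Spag6 was called higher (log2 difference 2.88, adjusted p = 0.00222 by limma) against 34% of all starts. Odf2 (log2 difference −4.99) and Tekt2 (−1.78) were called lower, against 3.56% of all starts.

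H3K9me3 at the 10 starts was 0 to 6 fragments a library from the deepest libraries of the study, at most 0.765 times even coverage (Odf2). The median of the 10 genes was 0.222 FPM beside 0.148 over all starts, and 7 of the 10 were above the latter. By rank among all starts Odf2 was at the 85.2nd percentile, Meig1 at the 79.1st, Smcp at the 79.0th and Odf1 at the 67.6th, each on 6 to 13 fragments in all. Spag6 had 0 fragments in all 4 libraries. Relative to IgG, 10 of the 10 genes were called lower with the fixed count, as were 91.1% of all starts, and 1 (Odf2, log2 difference −3.52) with the count scaled to depth, against 1.9% of all starts.

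No difference between KO and WT was called at any of the 10 genes, for any target. In H3K4me3 at starts, 9 of the 10 were tested (Tekt4 had under 10 fragments), and 0 of these and 0% of 12780 starts passed an adjusted p of 0.05 in limma-voom or in limma-trend. At an unadjusted p under 0.05 there were 402 of the 12780 starts and 0 of the 9 genes. The log2 differences of KO from WT were 0.51 (SE 0.47) at Spag6, 0.47 (0.35) at Odf1, 0.32 (0.38) at Oaz3, 0.27 (0.35) at Tekt2, 0.15 (0.35) at Odf2, 0.07 (0.35) at Smcp, −0.01 (0.36) at Meig1, −0.03 (0.35) at Tekt1 and −0.05 (0.34) at Akap3. Without WT replicate 2 the difference was 0.94 at Odf1 and 0.013 at Tekt2, and without WT replicate 1 it was 0.24 at Odf1. The median over all tested starts was 0.17, so that 4 of the 9 genes were above the middle start and 5 below it. The 95% interval at Akap3 was −0.72 to 0.62, and those of the other genes were about as wide or wider.

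With each KO library set against the WT library that has its replicate number (pair 1 and pair 2), 5 of the 9 genes were higher in KO in both pairs (Odf1, Oaz3, Tekt1, Tekt2 and Spag6) and 4 had opposite signs, while 39.7% of all tested starts were higher in both. Odf1 differed by 0.92 on the log2 scale in pair 1 and 0.27 in pair 2, and Smcp by −0.40 and 0.58. Over gene bodies H3K4me3 log2 differences lay between 0.00 at Odf1 and 0.41 (SE 0.28) at Akap3, beside a median of 0.05 over 18143 bodies. Here 7 of the 10 genes were higher in KO in both pairs, against 31.7% of all bodies tested, and 0 passed the test, with or without the block, as did 0% of all bodies (51 bodies at an unadjusted p under 0.05).

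**Figure D4:**
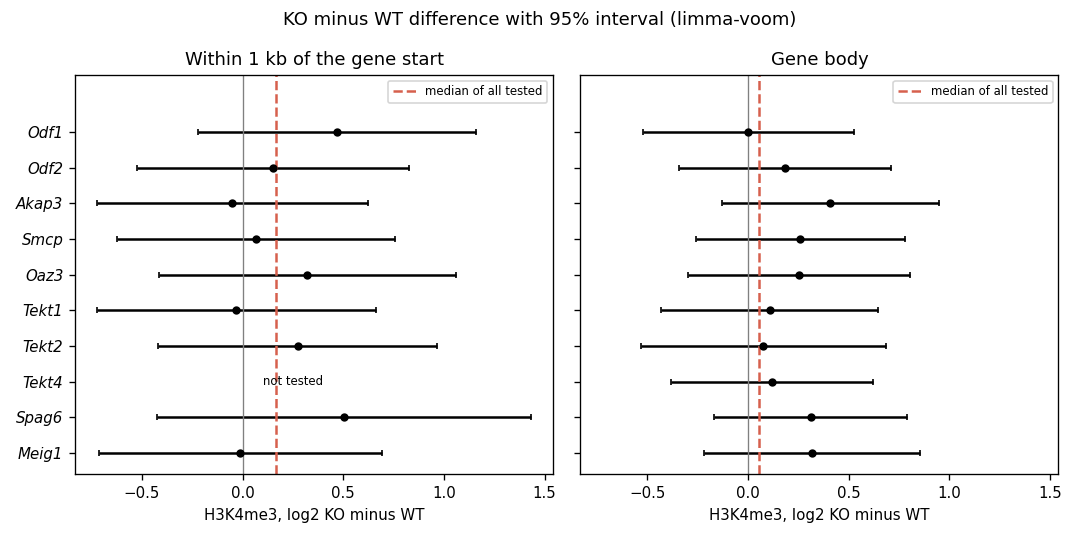
KO minus WT log2 differences of H3K4me3 at the starts and over the bodies of the 10 genes. Bars are 95% intervals from the limma-voom SE and a normal distribution, narrower than those of a moderated t. The dashed line is the median of all tested features. Every interval includes 0, and Tekt4 has no value at the start because it held 5 fragments.

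For the other targets too few fragments remained at the starts for most tests. H3K27me3 could be tested at Spag6 alone (log2 difference 0.57, SE 0.97) and H3K9me3 at Odf2 alone (−0.75, SE 0.88), and none of the 10 genes could be tested in IgG. By limma-voom and limma-trend 0% of starts were called in each of these targets, with 154 of 6492 at an unadjusted p under 0.05 in H3K27me3, 74 of 4290 in H3K9me3 and 0 of 85 in IgG. Over bodies 6 of the 10 genes could be tested in H3K27me3, 10 in H3K9me3 and 2 in IgG, and 0 of them and 0% of all bodies were called. With the replicate number as a block, 45 bodies passed in H3K9me3 (0.261%) and 37 in IgG (0.714%), at starts 1 passed in H3K27me3 (0.0154%), and 0 of the genes tested were among these. At an unadjusted p under 0.05 there were 7 of 13540 bodies in H3K27me3, 97 of 17262 in H3K9me3 and 71 of 5181 in IgG. The Spag6 body had a log2 difference of −0.26 (SE 0.61) in H3K27me3. In H3K9me3 the body differences ran from −0.67 (SE 1.12) at Tekt1 to 2.60 (SE 1.49) at Smcp, which had 9 and 5 fragments in KO and 2 and 0 in WT. Tekt2 had 1.89 (SE 1.53), on 4 and 4 fragments in KO and 2 and 0 in WT. Of the 10 bodies, 6 had higher H3K9me3 in KO in both pairs and 2 had lower in both, against 24.9% and 27.4% of all bodies tested, on 10 to 95 fragments a gene.

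Short H3K4me3 fragments made up a larger share at these genes in both KO libraries than in both WT libraries. Of all fragments at the 10 starts, 39.2% and 41.6% were 120 bp or shorter in the KO replicates and 27.7% and 27.3% in the WT replicates. The means were 40.4% ± 1.70 and 27.5% ± 0.288 (SD, 2 replicates each), and the smallest two-sided p that an exact permutation test allows for 2 against 2 is 0.333. The difference was 11.5 points in pair 1 and 14.3 in pair 2. Over all starts of the genome it was 10.1 and 12.8 points, and over the whole library 10.9 and 13.2, close to those at the 10 genes. Over the bodies of the 10 genes the H3K4me3 differences were 9.76 and 14.0 points. In the other targets the shares at the 10 starts rest on few fragments, with differences of 6.94 and 20 points in H3K27me3 (39 fragments in all), 2.22 and 23.5 in H3K9me3 (55) and 13.3 and −66.7 in IgG (14). Over the bodies they were 6.96 and −1.35 points in H3K27me3 (424 fragments), −3.96 and 0.966 in H3K9me3 (355) and 0 and −10 in IgG (62). Over the whole library the differences were 5.44 and 9.51 points in H3K27me3 and 5.40 and 7.03 in H3K9me3. Over all starts they were 4.735 and 8.39 points in H3K27me3 and 1.84 and 1.22 in H3K9me3. In IgG the share of short fragments in the whole library was also higher in KO (54.6% ± 3.52) than in WT (46.6% ± 3.19), and its part in the H3K4me3 shares was not tested.

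Of single genes, 9 had fragments in all 4 libraries, and 6 of these had a higher share of short fragments in KO in both pairs (Odf1, Odf2, Smcp, Oaz3, Tekt1 and Spag6), as did 57% of the 12272 starts counted in this way. At Oaz3 the share was 36.8% and 46.6% in KO and 22.2% and 18.4% in WT, and at Odf2 it was 39.5% and 36.7% in KO and 28.0% and 13.3% in WT. At Akap3 it was 34.4% and 46.3% in KO and 45.5% and 27.3% in WT, and there the genotypes overlapped. These shares rest on 9 to 123 fragments a library. Taken as the ratio of short to long fragments relative to the median start of each library, the log2 differences ran from −0.46 (SE 0.57) at Meig1 to 0.77 (SE 0.57) at Oaz3, and 0 of 9 genes passed in limma. Over all starts 1 of 9864 passed, or 0.0101%, and it was none of these genes. At an unadjusted p under 0.05 there were 425 starts and 0 of the 9 genes. In H3K27me3 0% of 4090 starts and in H3K9me3 0% of 1089 passed, with 252 and 19 at an unadjusted p under 0.05, and with the replicate block 2 and 12 passed (0.0489% and 1.1%). None of the 10 genes had enough short and long fragments for the ratio test in these targets.

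**Figure D5:**
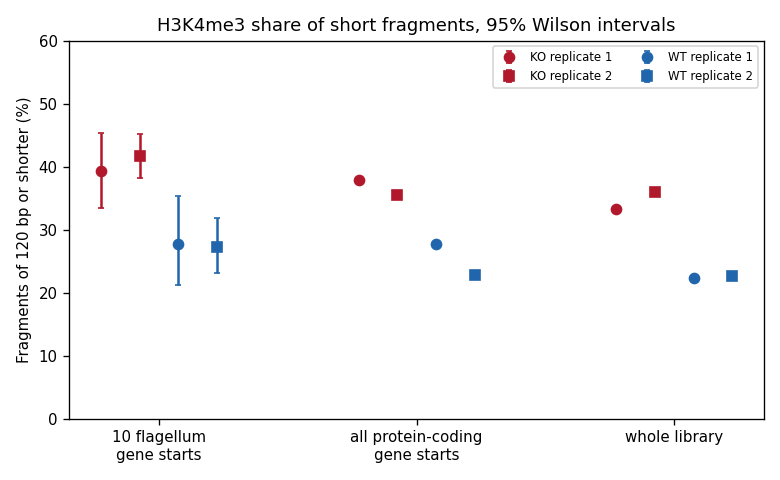
Share of H3K4me3 fragments of 120 bp or less at the starts of the 10 genes, taken as one, in percent, for each library, beside the same share over all starts and the whole library, with 95% Wilson intervals as bars. The KO libraries lie at 39.2% and 41.6% over the 10 genes together and the WT libraries at 27.7% and 27.3%.

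A wider list of flagellum genes, of which 70 of 72 were found, includes the 10 genes above. Of the 60 others, 55 were above the median H3K4me3 level of all starts, with a median of 18.7 FPM. Counts from here on are for all 70. All 12 fibrous sheath genes and all 9 genes of the mitochondrial sheath and midpiece were above that median, with class medians of 20.4 and 18.4. The outer dense fiber class had 6 of 9 above it, and 0.147 FPM was found at its lowest gene, Odf3l2. Against IgG, 56 of 69 tested were higher and 4 (Tekt4 among them) were lower with the fixed added count, where 44% of all starts were higher and 24.7% lower. The 3 with the smallest adjusted p by limma-voom were Tcte1, Spata19 and Pgk2. Tcte1, a gene of the dynein regulatory complex, had a log2 difference of 3.38 (limma-voom adjusted p = 0.000395). Spata19, a nuclear gene for a mitochondrial protein of spermatids, had 3.41 (limma-voom adjusted p = 0.000409). Pgk2, the testis form of phosphoglycerate kinase, had 3.47 (limma-voom adjusted p = 0.000451). Between KO and WT 0 of 65 were called at starts, and the median log2 difference of the list was 0.29 beside 0.17 over all starts.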

How the data were processed

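The authors aligned paired reads of 25 bases to mm10 with Bowtie2 (2.3.4.3 per the submitters' processing notes, while the study's methods name another version) and deposited a list of mapped fragments for each library. Per the labels and the files' content, each row holds a fragment's chromosome, start, end and length in bp, with no count and no normalization. The methods name a duplicate-marking step, but 33.6% to 83.4% of the listed fragments repeated another's position, so each position and length was counted once here. Counts were made within 1 kb of each GENCODE vM21 gene start and over each gene body on chromosomes 1 to 19, X and Y, from the fragment midpoint, and divided by the library's distinct fragments. Short means 120 bp or less and long 150 bp or more.

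Features with at least 10 fragments were tested with limma-voom (limma 3.58.1, R 4.3.3), with Benjamini-Hochberg adjustment over all features and a threshold of 0.05. KO and WT were compared within a target with genotype as the only term, and targets over all 16 libraries. Ratios of short to long fragments were tested with limma after centering on each library's median. Scripts were tested on simulated data. Python 3.11.15, NumPy 2.4.6, pandas 2.3.3, SciPy 1.17.1 and matplotlib 3.10.9 were used. Wilson intervals were used for shares, exact intervals for counts and normal intervals on the SE for log2 differences. The 10 genes, the wider list and the marker lists were chosen with earlier results of these data known. Other genes were named where they overlap a window, copy a gene of the set, or were among the 3 of the wider list with the smallest adjusted p. Alternatives covered repeated fragments, scaling, filters, windows, the overlap rule, limma-trend, the replicate number as a block and leaving out each replicate. Coding transcript starts, gene bodies against IgG, WT or KO libraries alone and an added count in proportion to depth were chosen after seeing the data. Promoter sequences are from a set of RefSeq promoters (GRCm38.p6), and the set used here held none for Odf1 and Oaz3. Per the methods, the 2 replicates are separate animals, from 2 sibling pairs of a WT and a KO male. Neither the methods nor the labels say that a replicate number marks a pair. Libraries of the same replicate number share a code in their titles across genotypes and targets, and their deviations from the genotype means correlated (0.242 in H3K4me3, 0.298 in H3K27me3, 0.195 in H3K9me3 and 0.215 in IgG). The labels do not say what the code marks. The correlations use a fixed added count of 0.5, and within each target the deeper library had the same replicate number in KO and WT. The part of depth in these values was not tested.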

Additional observations from a re-analysis of the deposited data

How the results depend on the processing

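Few fragments, 2 replicates a group and shallow IgG limit these results. Of the KO and WT comparisons, H3K4me3 at starts had 0 calls under every alternative but one: leaving out 1 replicate gave 0 to 9, with 9 without WT replicate 2. In H3K27me3 at starts (0 calls) there was 1 call with the block, 1 with no filter, 9 within 2 kb and 0 to 15 with a replicate left out. Over bodies H3K27me3 (0) had 3 with every deposited fragment, 1 with no filter and 0 to 5 with a replicate left out, H3K9me3 (0) had 45 with the block and 1 to 53 with a replicate left out, and IgG (0) had 4 with every fragment, 37 with the block and 7 with no filter. Ratios of short to long fragments in H3K4me3 (1) had 4 with every fragment, 0 without weights, 0 within 500 bp, 3 within 2 kb and 0 to 2 with a replicate left out. Those in H3K27me3 (0) had 7 with every fragment, 2 with the block, 10 with a minimum of 5 short and 5 long, 8 within 500 bp, 13 within 2 kb and 0 to 19, and those in H3K9me3 (0) had 12 with the block and 0 to 12. The causes were not tested.

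Against IgG, H3K4me3 calls among the 10 genes (9, with Tekt4 lower) fell to 5 within 500 bp, 0 in WT libraries alone, 7 in KO libraries alone and 5 to 7 with a replicate left out. Of all starts 68.7% were called in either direction, and in these settings 46.7%, 0.108%, 56% and 34.5% to 61.9%. H3K27me3 calls (9) became 3 with every fragment, 2 with median-ratio scaling, 3 with the added count in proportion to depth, 4 over bodies, 1 in WT and 4 in KO libraries, and 1 to 8. Of all starts or bodies 81.3% were called, and in these settings 35.9%, 30.4%, 37.6%, 54.9%, 12.9%, 59.3% and 14.9% to 82.3%. H3K9me3 calls (10) became 5 with every fragment and 1 with the added count in proportion to depth, where 91.2% of all starts were called and then 25.2% and 13.5%.

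The KO and WT log2 difference in H3K4me3 changed sign, never past the threshold, at 7 genes. Odf2 was −0.052 with median-ratio scaling. Akap3 was 0.31 with every fragment, 0.10 with the block, 0.041 with no filter, 0.0022 in limma-trend, 0.0099 with the added count in proportion to depth, 0.037 by any overlap, 0.15 within 500 bp and 0.41 within 2 kb. Smcp was −0.030 with every fragment and −0.12 with median-ratio scaling. Tekt1 was 0.072 with the block, 0.037 with no filter, 0.078 in limma-trend, 0.090 with the scaled count and 0.020 within 2 kb, Spag6 −0.044 within 2 kb, and Meig1 0.013 with the scaled count and 0.25 within 2 kb. With a replicate left out the ranges were −0.22 to 0.40 at Odf2, −0.29 to 0.29 at Akap3, −0.35 to 0.48 at Smcp, −0.12 to 0.72 at Oaz3, −0.27 to 0.32 at Tekt1, −0.091 to 0.10 at Meig1, 0.24 to 0.94 at Odf1, 0.013 to 0.37 at Tekt2 and 0.42 to 0.66 at Spag6.

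The replicate number as a block left H3K4me3 at 0 calls at starts and over bodies, and called 0 of those among the 10 genes that were tested between KO and WT. None of the 10 was tested in IgG at starts or in the ratios of H3K27me3 and H3K9me3.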
